A study of Mus musculus with 40 samples.

Results

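The endothelial and mural cell genes are 33 genes whose messenger RNA is made mainly by the cells of blood vessel walls. They were listed by name, 24 for endothelium and 9 for mural cells, by a rule that uses no measured value, though by then earlier results of these data were known. They were followed here through ribosome-bound RNA from the accumbens nucleus of the mouse. All 33 were present among the 32531 gene symbols of each library, each with 1 gene model. For counting, 6 of the mural genes were grouped as pericyte genes (Pdgfrb, Rgs5, Vtn, Abcc9, Anpep and Notch3) and 3 as smooth muscle genes (Acta2, Myh11 and Tagln). Notch3 is a receptor of mural cells in general, so this split does not separate pericytes from smooth muscle strictly.

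Every library came from the Drd1-TRAP CP73 line, with a FVB/N-Swiss Webster background crossed to C57BL/6 for at least 9 generations. In this line an EGFP-tagged ribosomal protein is made under the D1 dopamine receptor gene, and polysomes were pulled down with antibodies against EGFP. The method is meant to enrich RNA of D1 medium spiny neurons, and no input or unbound RNA was analysed here. Mice had self-administered saline or cocaine. The cocaine mice were labelled nonescalating or escalating, and tissue was taken 24 hours or about 1 month after self-administration. At 24 hours there were 6 saline (libraries 1570 to 1575), 9 nonescalating (1576 to 1584) and 5 escalating libraries (1585 to 1589). At 1 month there were 5 saline (1590 to 1594), 11 nonescalating (1595 to 1605) and 4 escalating libraries (1606 to 1609). Age and sex of the mice, and whether each library is a separate animal, are not given in the labels, so p-values measure only the spread between these samples. The saline groups shared the transgene and the self-administration procedure with the cocaine groups.

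Endothelial cells line the vessel and, in the brain, form the blood-brain barrier. Tight junctions seal the gaps between them, carriers such as the glucose transporter Slc2a1 admit nutrients, and pumps such as P-glycoprotein (Abcb1a) return drugs to the blood. Pericytes sit on capillaries and depend on endothelial PDGF-B acting on their receptor Pdgfrb, while smooth muscle cells wrap arterioles and contract through proteins such as Acta2 and Myh11.

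Library 1595 held 5168 counts in all, of which 2 fell in vessel genes, and was left out. The other 39 libraries held between 3.77 M and 33.9 M counts of genes. Reads outside annotated genes were 18.7% to 70.3% of the reads counted, and were highest in the saline 24-hour libraries 1573 (70.3%) and 1574 (51.1%). Those libraries also held the most astrocyte marker RNA, with summed levels of 4327 and 3097 CPM (the count of a gene relative to the scaled total of its library). The defining D1 markers were above 0 in all 39 libraries, and their sum was lowest in 1573 (322 CPM, against up to 2507 CPM elsewhere). Comparisons that include 1573 and 1574 are given with and without them for the member lists and the members named by smallest p.

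The upstream windows of 4 vessel genes are shown first, because one short motif was found in most endothelial windows and in none of the mural ones. Each window is the 250 bases before the RefSeq start of transcription in GRCm38.p6 (the mm10 assembly), read 5′ to 3′ on the strand of the gene. The letters searched, on both strands, were AGGAAG, a core bound by ETS factors such as the endothelial regulator Erg, and TATAAA, the TATA box. Capitals mark a match, and CTTCCT is AGGAAG on the other strand. Flt1 (VEGF receptor 1) has its window at chr5:147726012-147726261 on the minus strand, Slco1a4 (an organic anion carrier of the barrier) at chr6:141856221-141856470 on the minus strand, Rgs5 (a regulator of G protein signalling in pericytes) at chr1:169655251-169655500 on the plus strand, and Notch3 (the Notch receptor of mural cells) at chr17:32166891-32167140 on the minus strand.
Flt1: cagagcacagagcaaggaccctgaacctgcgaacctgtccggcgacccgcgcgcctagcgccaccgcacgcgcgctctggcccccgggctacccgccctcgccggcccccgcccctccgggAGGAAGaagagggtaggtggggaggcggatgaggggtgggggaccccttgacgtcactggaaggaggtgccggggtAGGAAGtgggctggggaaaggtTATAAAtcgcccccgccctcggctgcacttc
Slco1a4: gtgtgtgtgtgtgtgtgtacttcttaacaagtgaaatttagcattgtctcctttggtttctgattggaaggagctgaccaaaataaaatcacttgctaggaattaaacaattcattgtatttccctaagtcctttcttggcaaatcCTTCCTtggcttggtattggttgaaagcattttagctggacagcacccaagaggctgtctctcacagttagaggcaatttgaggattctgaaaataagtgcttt
Rgs5: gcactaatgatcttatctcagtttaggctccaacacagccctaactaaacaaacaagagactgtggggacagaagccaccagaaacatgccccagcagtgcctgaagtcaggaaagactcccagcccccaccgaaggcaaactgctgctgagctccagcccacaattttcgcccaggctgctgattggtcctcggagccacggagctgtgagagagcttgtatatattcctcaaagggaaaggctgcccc
Notch3: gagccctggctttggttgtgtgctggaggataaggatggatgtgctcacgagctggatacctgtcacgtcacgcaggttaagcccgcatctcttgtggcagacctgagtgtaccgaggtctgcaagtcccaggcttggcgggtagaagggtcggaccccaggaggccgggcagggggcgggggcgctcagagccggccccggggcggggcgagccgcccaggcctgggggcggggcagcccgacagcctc

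The Flt1 window holds AGGAAG 129 and 53 bases before the start and TATAAA 31 bases before it. The Slco1a4 window holds AGGAAG on the other strand at 104 bases, and the Rgs5 and Notch3 windows hold neither motif. RefSeq windows were found for 17 of the 24 endothelial genes (24 windows, since some genes have several starts) and for 6 of the 9 mural genes (6 windows). AGGAAG was present in 15 of the 24 endothelial windows (62.5%), belonging to 12 genes, and in 0 of the 6 mural windows, against 29.48% of all 32851 windows. TATAAA was present in 3 of 24 and 1 of 6 (Vtn), against 12.37% of all windows. A CArG box, the motif bound by serum response factor, was searched only as CC, 6 bases of A or T, and GG. In that strict form it was in none of the members' windows found and in 1.47% of all. Forms with another base in the core, such as CCCTATATGG in the Acta2 window, were not counted. No window was found for Myh11 or Tagln. A match says only that these letters occur there.

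Vessel genes were counted at low but usable depth. The median count over members and libraries was 148, and the median per gene ran from 7.0 for Acta2 to 1328 for the endothelial phosphatase Ptprb. A count above 0 was found in all 39 libraries for 26 of the 33 members. The exceptions were Acta2 (0 in 16 libraries), Tagln (9), Anpep (6), the adhesion molecule Esam (3), the receptor Tie1 (2), and Cldn5 and Sox18 (1 each, both in the nonescalating 24-hour library 1577). Where Acta2 was at 0, a floor of 3 counts per library corresponds to 0.223 to 0.495 CPM.

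Levels per kilobase of exon, the scale on which genes can be compared, were highest for carriers of the barrier. The highest median was that of Slc2a1, at 21.6 CPM per kilobase, and the next were Slco1a4 at 12.6 and the membrane protein Itm2a at 9.60. The pericyte genes Vtn (vitronectin) and Rgs5 stood at 9.35 and 9.18 CPM per kilobase, next to Flt1 at 8.81 and Ptprb at 8.74. The lowest medians were those of Anpep (0.835), Tagln (0.700) and Acta2 (0.342 CPM per kilobase). Slc2a1 and the thyroid hormone carrier Slco1c1 are also made by astrocytes, so their level is not a measure of endothelium alone.

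Together the 33 genes took 0.0179% to 0.634% of the gene counts of a library. The endothelial sum ran from 150 CPM in the saline 1-month library 1594 to 5417 CPM in the saline 24-hour library 1574, a 36.1-fold range around a median of 693 CPM. The mural sum ran from 29.5 CPM in the nonescalating 1-month library 1600 to 1192 CPM in 1574, a 40.4-fold range around a median of 121 CPM. Each library is a pulldown from many cells, and no input was analysed. The number of vessel cells, their RNA per cell and the vessel RNA carried through the pulldown therefore cannot be told apart.

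**Figure D1:**
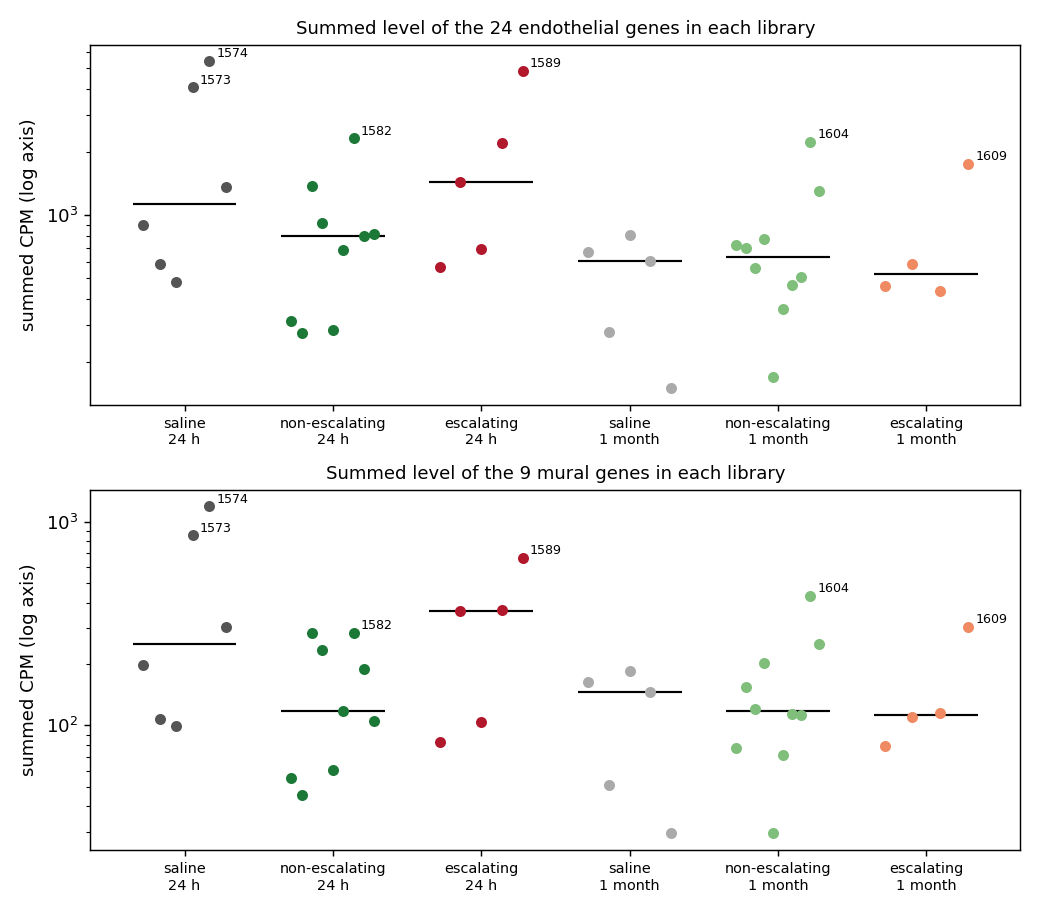
Summed CPM of the 24 endothelial and the 9 mural genes in each of 39 libraries by group (log axis; points are libraries, bars are group medians). The endothelial sum runs from 150 to 5417 CPM and the mural sum from 29.5 to 1192 CPM, and the 6 groups overlap in both.

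The spread between libraries of a group was wide. The endothelial sum averaged 2132 ± 2085 CPM in saline at 24 hours (SD, n = 6), or 830 ± 396 without 1573 and 1574. It averaged 865 ± 653 in nonescalating (n = 9) and 1951 ± 1749 in escalating libraries (n = 5) at 24 hours, the latter 1226 ± 757 without 1589. At 1 month the means were 502 ± 277 in saline (n = 5), 778 ± 592 in nonescalating (n = 10) and 808 ± 634 CPM in escalating libraries (n = 4). Of the 4 escalating libraries at 1 month, 3 stood between 433 and 586 CPM and 1609 at 1753 CPM, and their mean without 1609 was 492 ± 81.9 CPM.

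The mural sum averaged 460 ± 456 CPM in saline at 24 hours, or 177 ± 95.7 without 1573 and 1574, and 153 ± 97.2 in nonescalating and 316 ± 238 in escalating libraries. At 1 month the means were 115 ± 69.9, 157 ± 117 and 152 ± 103 CPM in saline, nonescalating and escalating libraries. Without 1609 the last was 101 ± 19.5 CPM. The 3 smooth muscle genes summed to 0.677 CPM in 1591 and 118 CPM in the nonescalating 1-month library 1604, a 174-fold range. In 1591 the counts were 0 for Acta2, 2 for Myh11 and 6 for Tagln, so counting error is large at that end.

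Endothelial and mural genes moved together from library to library. Of the 13 libraries with the highest endothelial sum, 12 were also among the 13 with the highest mural sum. The same 13 shared 10 libraries with the top of the red blood cell markers, 9 with microglia, 9 with perivascular fibroblasts, 8 with astrocytes, 8 with the share of reads outside genes, 6 with oligodendrocytes and 1 with D1 neurons. They shared 5 each with all medium spiny neurons (a list that includes Penk), D2 neurons and choroid plexus. The choroid plexus sum came mainly from Clic6 and Kl, with medians of 26.9 and 11.4 CPM. Ttr, Folr1 and Kcne2 had medians of 0, so that sum is no clear sign of choroid plexus. The 13 libraries with the lowest endothelial sum shared 9 with the lowest mural sums, 9 with fibroblasts and 8 with red blood cell markers. Microglial genes were near 0 (0 of 10 were above 0 in all libraries, summed level 0 to 65.0 CPM). Red blood cell and perivascular fibroblast genes were low too, with 0 of 4 and 1 of 9 above 0 in all libraries. Their typical gene had a median of 0.798 and 0.533 CPM. How many libraries would be shared by chance was not computed, so the smaller numbers shared may not differ from chance. The part of these markers in the vessel levels was not tested.

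**Figure D2:**
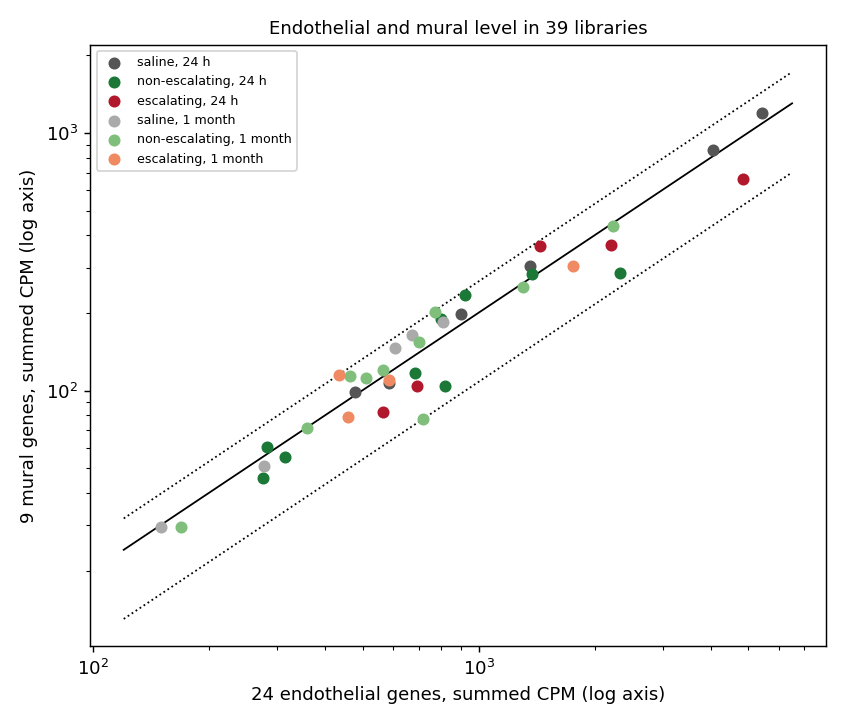
Summed mural CPM against summed endothelial CPM in 39 libraries (both axes log; each point is a library, marked by group). The points follow a narrow band, with the mural sum at 10.8% to 26.5% of the endothelial sum, from library 1594 at the lower end to 1574 at the upper.

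The mural sum was 20.1% of the endothelial sum at the median and varied only 2.46-fold, from 10.8% in 1596 to 26.5% in the escalating 1-month library 1608. By group it was 21.1% ± 1.5, 18.6% ± 4.57 and 17% ± 4.67 at 24 hours and 21.9% ± 2.75, 20.3% ± 4.22 and 19.99% ± 4.42 at 1 month, in the order saline, nonescalating and escalating. Smooth muscle genes made a far less steady share of the mural sum, from 1.33% in 1591 to 35.7% in 1599 with a median of 8.70%. Their group means lay between 8.15% ± 4.94 in nonescalating libraries at 24 hours and 14.2% ± 7.84 in escalating libraries at 1 month.

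**Figure D3:**
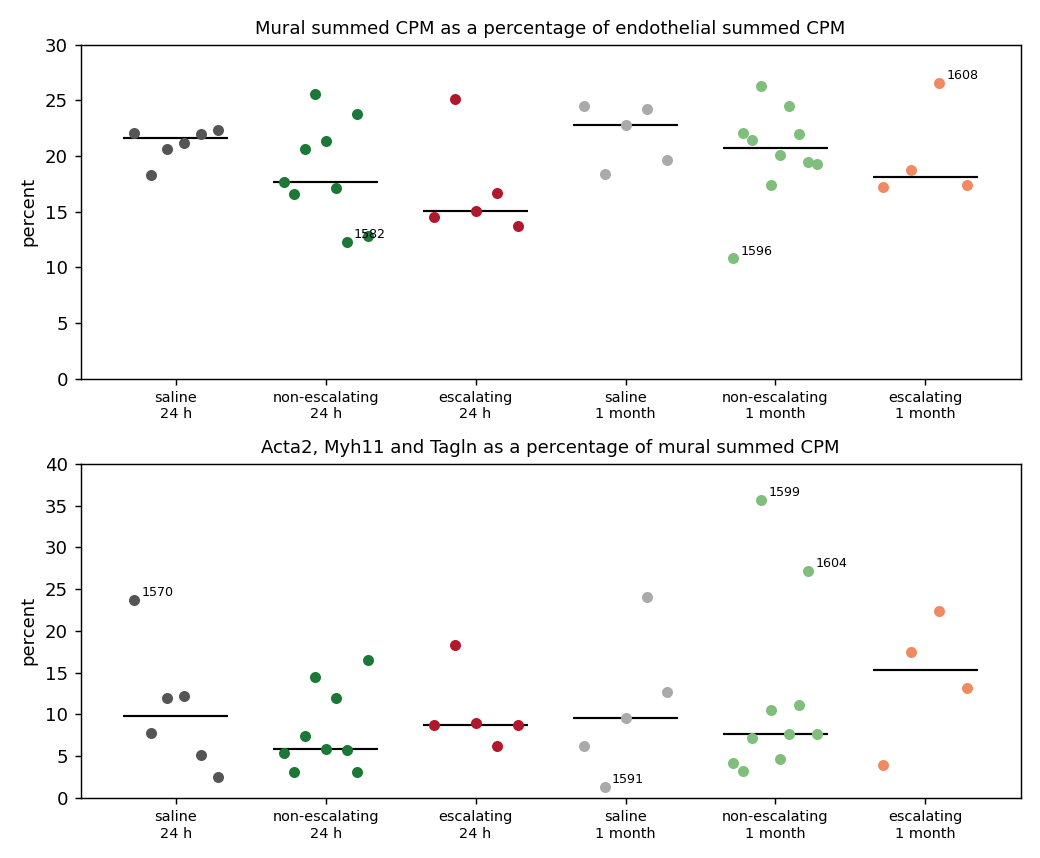
Mural sum as a percent of the endothelial sum, and the sum of Acta2, Myh11 and Tagln as a percent of the mural sum, per library and group (points are libraries, bars are group medians). The first ratio lies between 10.8% and 26.5%, the second between 1.33% and 35.7%.

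Vessel genes also varied more between libraries than other genes of like level. The SD of log2 CPM over 39 libraries was 1.47 at the median of the endothelial genes, against 0.935 for genes whose mean level lay within 0.5 log2 units of theirs. It exceeded that of genes of like level in 23 of the 24, with Itm2a (0.883 against 0.898) as the exception. For mural genes the median SD was 1.74 against 0.997, and 9 of 9 exceeded it. Flt1 had an SD of 1.30, against 0.444 for genes of its level. Genes of like level were drawn from all genes. Whether vessel genes varied more than markers of astrocytes, oligodendrocytes or perivascular fibroblasts was therefore not tested. These SDs include the saline libraries with the most reads outside genes and are not given without them.

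The libraries with most vessel RNA were few. Among the 33 members the highest level fell in 1574 for 12, in the escalating 24-hour library 1589 for 9, in 1573 for 6, in the nonescalating 24-hour library 1582 for 3, and in 1575, 1604 and 1609 for 1 each. Except for 1575, each had the highest or, for 1574, the next highest share of reads outside genes in its group (40.2% in 1589, 40.4% in 1582, 33.7% in 1604 and 32.6% in 1609).

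These libraries did not hold the same mixture. In 1574 the clotting factor Vwf stood at 596 CPM, 11% of the endothelial sum, and Rgs5, Notch3 and Vtn at 481, 318 and 211 CPM, while Pdgfrb stood at 14.7 CPM and Acta2, Tagln and Anpep at 0. In 1573 Pdgfrb stood at 211 CPM, 24.6% of the mural sum against 1.23% in 1574, and Acta2 was at 45.2 CPM. In 1582 Itm2a (104 CPM), the sialomucin Emcn (132 CPM) and Esam (48.9 CPM) had their highest levels, but Vwf stood at 2.29 and Sox18 at 0.254 CPM.

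**Figure D4:**
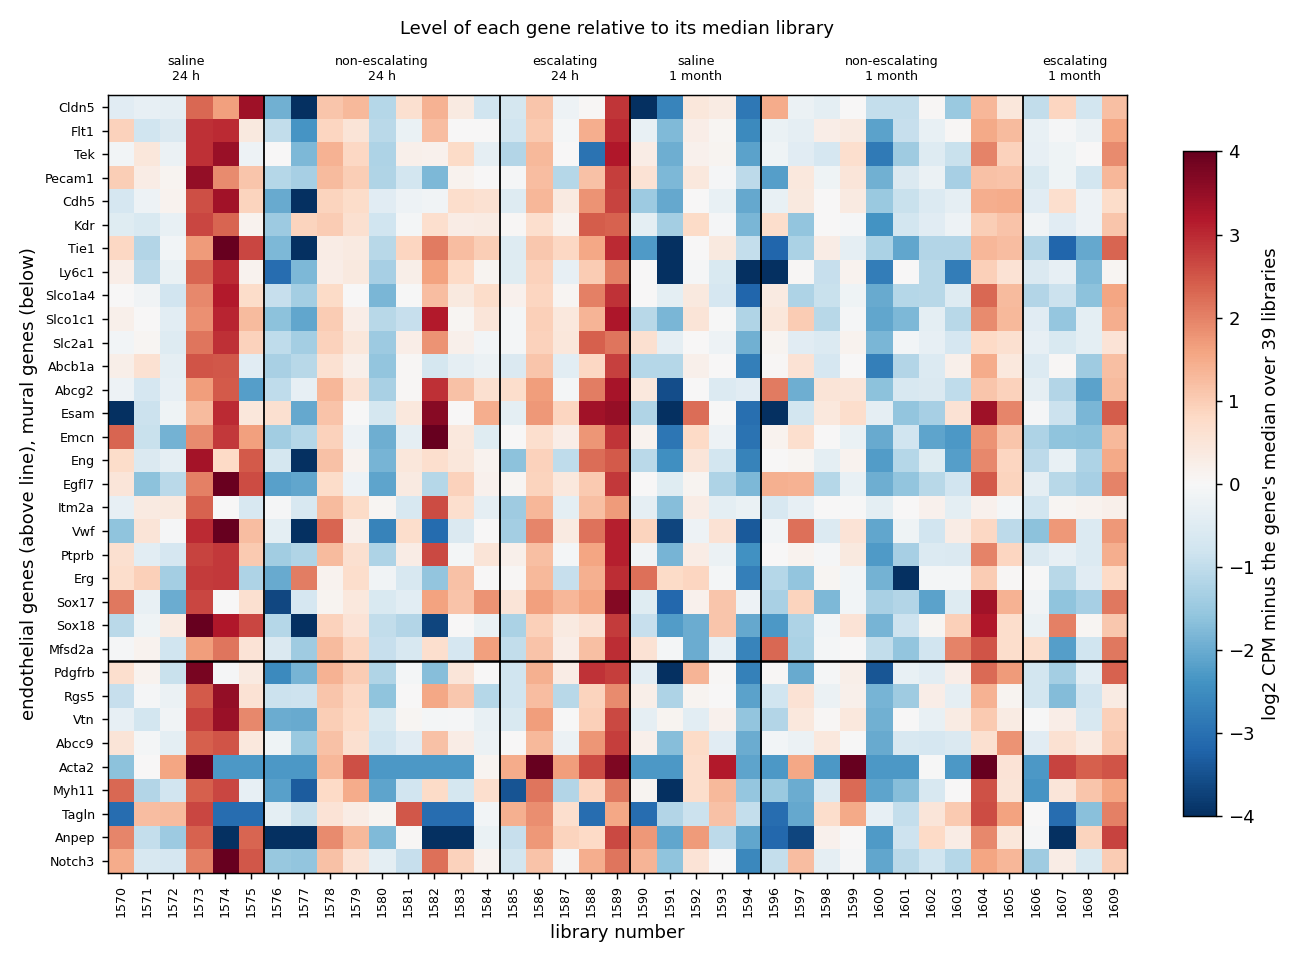
Level of each of the 33 members (rows, endothelial above mural) in each of 39 libraries (columns by group), as log2 CPM minus the member's own median over libraries. Libraries 1573, 1574, 1582, 1589, 1604 and 1609 show as columns high for most members, with exceptions such as Pdgfrb near its median in 1574 and Vwf below it in 1582.

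By share of the sum, the endothelial list was led by Ptprb (17.6% at the median) and Flt1 (17%), followed by Slco1a4 (11%) and Slc2a1 (10.9%). The mural list was led by Rgs5 at 29.2%, with 11% in 1570 and 51.1% in 1577, followed by the potassium channel subunit Abcc9 (14.8%), Vtn (14.5%), Notch3 (12%) and Pdgfrb (11.2%).

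The junction and receptor genes are described first. Cldn5, the claudin of the barrier's tight junction, ranged in saline at 24 hours from 4.90 to 71.9 CPM (1575) with a median of 13.3. It ranged from 0 (1577) to 17.9 CPM with a median of 8.78 in nonescalating libraries, and measured 4.04, 5.88, 7.02, 14.9 and 50.5 CPM (1589) in escalating libraries. At 1 month Cldn5 measured 0.107, 0.769, 0.931, 8.49 and 9.27 CPM in saline, 2.31 to 19.1 with a median of 6.25 in nonescalating, and 3.34, 3.95, 12.4 and 15.7 CPM in escalating libraries. All 6 groups overlapped, and 3 saline libraries at 1 month stood below 1 CPM.

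Flt1 ranged from 69.0 to 937 CPM with a median of 190 in saline at 24 hours, where 1573 and 1574 stood above 900 and the other libraries at 225 or below. It ranged from 23.3 to 282 CPM with a median of 119 in nonescalating libraries, and measured 68.4, 114, 245, 329 and 946 CPM (1589) in escalating libraries. At 1 month Flt1 measured 20.2, 35.2, 96.3, 125 and 142 CPM in saline, 27.1 to 343 with a median of 110 in nonescalating, and 97.5, 101, 115 and 353 CPM (1609) in escalating libraries. Single high libraries stood at the top of the escalating groups, and the groups overlapped.

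The barrier's pumps and carriers had the same high libraries. Abcb1a (P-glycoprotein) ranged from 20.1 to 160 CPM with a median of 37.5 in saline at 24 hours and from 9.10 to 42.4 with a median of 21.6 in nonescalating libraries. It measured 18.5, 20.7, 49.2, 60.1 and 186 CPM in escalating libraries, of which 3 stood above every nonescalating library. At 1 month it measured 3.99, 12.4, 12.5, 27.8 and 32.2 CPM in saline, 4.0 to 78.5 with a median of 28.5 in nonescalating, and 10.3, 18.9, 29.0 and 64.0 CPM in escalating libraries. Abcb1a and its near copy Abcb1b can share reads, so this count is uncertain.

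Slco1a4 ranged from 47.1 to 725 CPM (1574) with a median of 108 in saline and from 22.5 to 190 with a median of 82.2 in nonescalating libraries at 24 hours, and measured 85.5, 91.5, 146, 330 and 599 CPM in escalating libraries. Values at 1 month were 8.69, 50.1, 61.9, 82.0 and 105 CPM in saline, 19.8 to 395 (1604) with a median of 49.7 in nonescalating, and 25.6, 35.3, 44.9 and 244 CPM (1609) in escalating libraries. The lowest escalating library at 24 hours was above the nonescalating median.

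Ly6c1, a surface protein of endothelium whose reads can be shared with Ly6c2, ranged at 24 hours from 6.00 to 102 CPM with a median of 14.8 in saline and from 1.38 to 39.4 with a median of 15.2 in nonescalating libraries, and measured 9.13, 10.1, 24.6, 25.7 and 52.0 CPM in escalating libraries. At 1 month it measured 0.423, 0.621, 8.31, 12.2 and 12.9 CPM in saline, 0.521 to 24.8 with a median of 9.68 in nonescalating, and 3.65, 8.49, 10.1 and 13.6 CPM in escalating libraries. All 6 groups overlapped, and 2 saline libraries at 1 month stood below 1 CPM.

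Itm2a was the steadiest member, as its SD above shows. It ranged from 10.6 to 85.9 CPM (1573) with a median of 19.1 in saline and from 10.6 to 104 CPM (1582) with a median of 17.7 in nonescalating libraries at 24 hours, and measured 6.12, 12.8, 38.4, 42.2 and 55.0 CPM in escalating libraries. At 1 month it measured 5.0, 12.6, 13, 13.8 and 20.6 CPM in saline, 10.6 to 19 with a median of 16.1 in nonescalating, and 9.46, 17.8, 18.4 and 19.2 CPM in escalating libraries. In 1574, where most endothelial genes were at or near their highest, Itm2a stood at 16.8 CPM.

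Among pericyte genes, Pdgfrb ranged from 8.06 to 211 CPM (1573) with a median of 17.8 in saline and from 2.39 to 39.7 with a median of 14.3 in nonescalating libraries at 24 hours. It measured 8.55, 18.3, 40.6, 104 and 112 CPM (1588) in escalating libraries, of which 3 stood above every nonescalating library. At 1 month Pdgfrb measured 0.423, 2.16, 11.1, 15.5 and 38.7 CPM in saline, 1.22 to 72.2 with a median of 15.1 in nonescalating, and 5.77, 8.90, 11.1 and 77.4 CPM (1609) in escalating libraries. The groups overlapped at both times.

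Rgs5 ranged from 21.8 to 481 CPM (1574) with a median of 51.2 in saline and from 13.5 to 122 with a median of 42.6 in nonescalating libraries at 24 hours, and measured 19.3, 23.7, 77.7, 97.8 and 157 CPM in escalating libraries. Values at 1 month were 9.31, 17.5, 41.7, 45.0 and 49.0 CPM in saline, 11.3 to 109 with a median of 40.5 in nonescalating, and 12.4, 24.6, 24.9 and 52.8 CPM in escalating libraries. The groups overlapped, and their medians lay between 24.8 and 77.7 CPM.

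Vtn ranged from 11.4 to 211 CPM (1574) with a median of 44.8 in saline and from 4.59 to 37.5 with a median of 18.2 in nonescalating libraries at 24 hours, and measured 12.2, 18.6, 37.3, 60.6 and 119 CPM in escalating libraries. At 1 month it measured 6.30, 14.1, 14.6, 20.4 and 21.2 CPM in saline, 4.90 to 39.5 with a median of 21.7 in nonescalating, and 12.2, 18.9, 22.8 and 37.0 CPM in escalating libraries. The 3 highest saline libraries at 24 hours (1573, 1574 and 1575) stood above every nonescalating library.

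The smooth muscle genes were the least even. Acta2, smooth muscle actin, was at 0 in 6 of 9 nonescalating libraries at 24 hours and measured 0.831, 2.19 and 5.41 CPM in the other 3, whereas it was above 0 in each of the 5 escalating libraries, at 2.43, 2.82, 5.58, 12.4 and 18.5 CPM. In saline at 24 hours it ranged from 0 (1574 and 1575) to 45.2 CPM (1573) with a median of 0.43. At 1 month Acta2 measured 0, 0, 0.0296, 1.35 and 8.23 CPM in saline, was at 0 in 5 of 10 nonescalating libraries and reached 52.0 CPM in 1604, and measured 0, 4.72, 5.18 and 5.94 CPM in escalating libraries. Nonescalating and escalating libraries still overlapped at both times, and reads shared with other actins make low counts uncertain.

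Myh11, smooth muscle myosin, ranged from 4.03 to 60.5 CPM with a median of 27.2 in saline and from 0.765 to 26.8 with a median of 5.75 in nonescalating libraries at 24 hours, and measured 0.693, 4.12, 17, 41.1 and 42.4 CPM in escalating libraries. Values at 1 month were 0.169, 3.07, 10.2, 15.6 and 23.6 CPM in saline, 2.04 to 56.5 with a median of 6.15 in nonescalating, and 1.67, 13.2, 20.7 and 28.7 CPM in escalating libraries. Each group held libraries below 5 CPM.

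Tagln (transgelin, an actin-binding protein) ranged from 0 to 9.78 CPM in saline and from 0 to 8.57 in nonescalating libraries at 24 hours and measured 0, 2.35, 4.04, 4.48 and 5.57 CPM in escalating libraries. At 1 month Tagln measured 0, 0.508, 0.621, 0.674 and 3.38 CPM in saline, 0 to 9.49 in nonescalating, and 0, 0.304, 1.39 and 6.25 CPM in escalating libraries. As for Myh11, all 6 groups overlapped.

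The remaining members covered the same range of libraries. The VEGF receptor Kdr averaged 38.0 ± 40.1, 19.5 ± 8.70 and 43.9 ± 33.9 CPM in saline, nonescalating and escalating libraries at 24 hours, and the adhesion molecule Pecam1 64.4 ± 71.0, 17 ± 13.4 and 45.7 ± 44.8 CPM. The efflux pump Abcg2 averaged 15.1 ± 16.8, 16.4 ± 18.3 and 32 ± 28.7 CPM, the lipid carrier Mfsd2a 11.8 ± 9.25, 7.79 ± 5.93 and 16.9 ± 17.5 CPM, and the TGF-beta coreceptor Eng 73.6 ± 80.5, 23.1 ± 14.8 and 55.1 ± 51.2 CPM. The transcription factors Erg and Sox17 averaged 35.2 ± 36.0 and 10.8 ± 11.1 CPM in saline at 24 hours, and the angiopoietin receptor Tek 58.9 ± 69.4 CPM. Without 1573 and 1574 the saline 24-hour means (n = 4) were 12.5 ± 3.05 CPM for Kdr, 28.7 ± 9.76 for Pecam1, 4.94 ± 2.37 for Abcg2, 6.12 ± 2.23 for Mfsd2a, 46.4 ± 49.2 for Eng, 12.5 ± 9.31 for Erg, 7.84 ± 8.30 for Sox17 and 15.6 ± 3.84 for Tek. In the means over all libraries the SD was near the mean in most groups. Eng, Egfl7, Abcc9 and Tagln each share exon bases with another counted gene, and the strand setting of the counting is not known here.

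Tests were run across all genes of the table with edgeR's quasi-likelihood test and Benjamini-Hochberg adjustment over all genes tested, two-sided, on log2 fold changes of counts. With this test 0 genes had an adjusted p below 0.05 in any of the 12 comparisons, members included, and limma voom also gave 0. Counts below are therefore of members with an unadjusted p below 0.05, beside the share of all genes that did so in the same direction. The comparisons at one time share groups, so their directions are not independent of each other.

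For nonescalating against saline at 24 hours, vessel genes were lower in nonescalating libraries, by a median log2 fold change of -1.31 for endothelial genes (3 of 24 higher) and -1.54 for mural genes (0 of 9 higher), where the median over all 14137 genes tested was -0.03. An unadjusted p below 0.05 was reached in the lower direction by 12 endothelial and 6 mural members, against 7.72% of all genes, and by none in the higher direction (2.25% of all genes). Without libraries 1573 and 1574 the medians were 0.13 and -0.14, 0 members passed in the lower direction (2.59% of all genes), and 1 endothelial member passed in the higher one (2.65%). Over all genes, 318 higher and 1091 lower genes had an unadjusted p below 0.05. With limma voom this balance turned round (507 higher, 197 lower), the medians were -0.73 and -0.97, and 2 endothelial and 0 mural members passed in the lower direction.

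Sox18, a transcription factor of endothelial development, ranged from 2.51 to 98.9 CPM with a median of 21.7 in saline and from 0 to 10.5 with a median of 2.68 in nonescalating libraries. Its log2 fold change was -3.07 (SE 0.84, p = 0.00107, edgeR adjusted p = 0.224), with 9 of 9 nonescalating libraries below the saline mean. That also held without 1573 and 1574, where the saline mean was 12.7 ± 15.9 CPM (n = 4). This mean was raised by 1575 at 36.4 CPM, and the other saline libraries, at 2.51, 4.88 and 6.91 CPM, were below it too. Egfl7, a secreted endothelial protein, ranged from 4.13 to 212 CPM in saline and from 2.85 to 25.3 in nonescalating libraries, a log2 fold change of -2.43 (SE 0.68, edgeR adjusted p = 0.224). Among mural genes Vtn gave -2.07 (SE 0.59, edgeR adjusted p = 0.224, or 0.0457 in 1 edgeR fit of all 39 libraries, where it was called at -2.04) and Notch3 -1.85 (SE 0.63, edgeR adjusted p = 0.277). The groups overlapped for all 4, and without 1573 and 1574 the log2 fold changes were -1.65, -1.25, -0.68 and -0.71.

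DESeq2 called 159 genes here (147 lower, 1.16% of genes), among them the members Abcb1a, Egfl7, Pecam1, Sox18 and Vtn with adjusted p from 0.0221 to 0.0466. On the libraries without 1573 and 1574 it called 4, with no member among them. Other cell markers were lower with the vessel genes in nonescalating libraries, with median log2 fold changes of -1.75 for 12 astrocyte genes, -1.38 for 10 oligodendrocyte genes and -3.21 for 8 tested perivascular fibroblast genes, against 0.20 for 7 D1 genes. In the fit lacking 1573 and 1574 these medians were 0.06, 0.80, -0.60 and -0.10. The part of these cells, and of the reads outside genes in 1573 and 1574, in the result was not tested.

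For escalating against saline at 24 hours the vessel genes had no common direction. The median log2 fold change was -0.17 for endothelial genes (9 of 24 higher) and 0.02 for mural genes (5 of 9 higher), with -0.06 over all genes, and 0 members had an unadjusted p below 0.05 (1.41% of all genes higher, 3.74% lower). These medians changed sign with the scaling or tool, with endothelial values of -0.23 to 0.43 and mural values of -0.16 to 0.60. Over all genes, 200 higher and 529 lower genes had an unadjusted p below 0.05, against 328 and 274 with library totals and 512 and 98 with limma voom. Leaving out 1573 and 1574, 23 of 24 endothelial and 8 of 9 mural genes were higher in escalating libraries, with medians of 1.32 and 0.88, and 6 endothelial and 2 mural members had an unadjusted p below 0.05 (3.4% of all genes).

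The members with the smallest p were Sox18 at -1.34 (SE 0.97), the efflux pump Abcg2 at 1.07 (SE 0.79), Notch3 at -1.30 (SE 0.76) and Rgs5 at -0.97 (SE 0.75) on the log2 scale, with edgeR adjusted p from 0.956 to 0.988. Leaving out 1573 and 1574 they stood at 0.09, 2.69, -0.16 and 0.91, and Abcg2 had an edgeR adjusted p of 0.833. DESeq2 called 8 genes (0.0581%), with no member among them. Astrocyte and oligodendrocyte markers were lower in escalating libraries by medians of -2.05 and -2.19, or -0.17 and 0.30 without 1573 and 1574, and their part in the result was not tested.

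For escalating against nonescalating at 24 hours, a comparison that holds neither 1573 nor 1574, all 24 endothelial and all 9 mural genes were higher in escalating libraries. The median log2 fold changes were 1.14 and 1.29 (-0.03 over all genes), and 7 endothelial and 4 mural members had an unadjusted p below 0.05, against 2.36% of all genes in that direction. The smallest edgeR adjusted p was 0.9998, so 0 members passed, and 446 genes of the table had an unadjusted p below 0.05. DESeq2 called 3 genes (0.0218%), with no member among them. In a fit without 1573 and 1574, which changes only the scaling and the shared estimate of spread, 10 endothelial and 4 mural members had an unadjusted p below 0.05 (3.33% of genes). Without library 1589 the medians were 0.61 and 0.70.

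**Figure D5:**
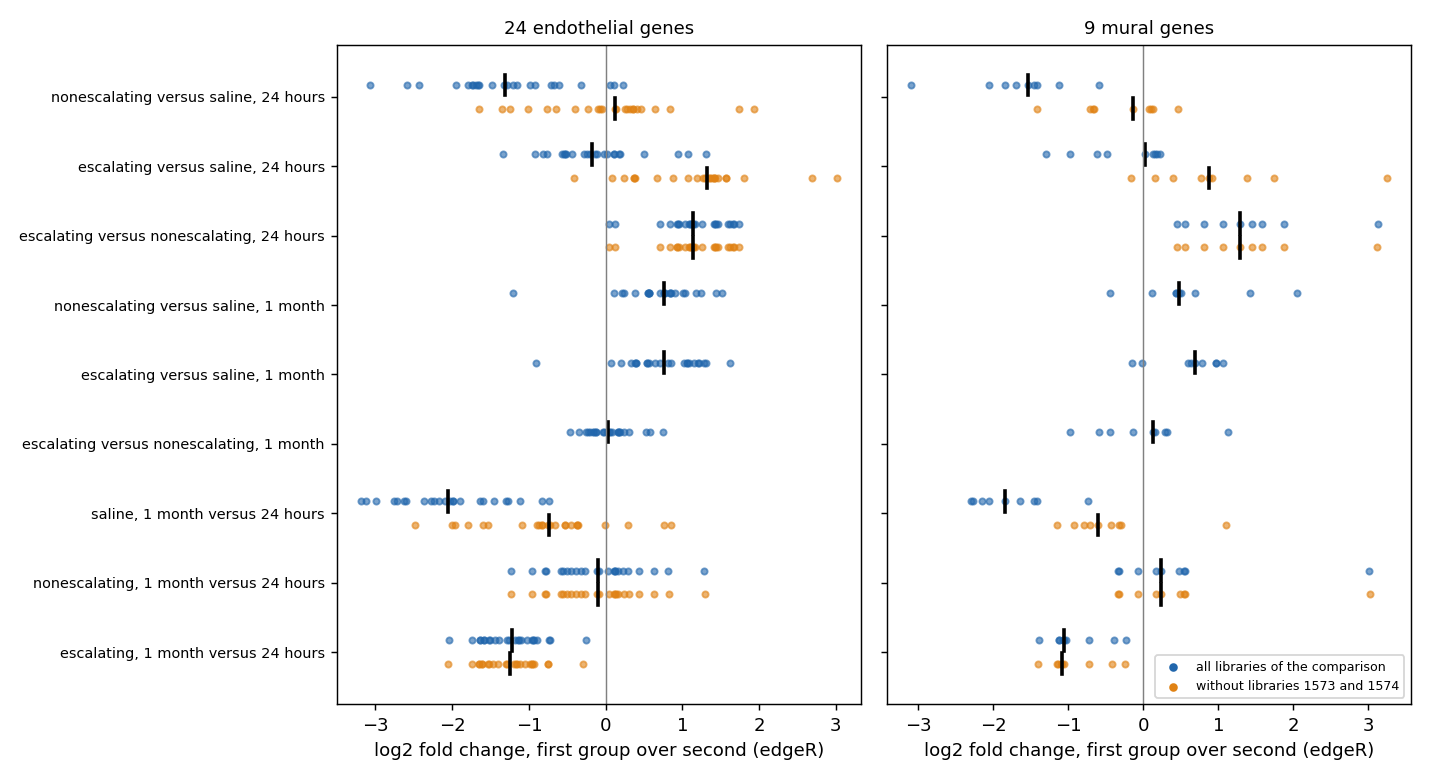
Log2 fold changes of the 33 members in the 9 comparisons of 2 groups, endothelial and mural genes apart, with and without libraries 1573 and 1574 (points are genes, lines are medians, the 0 line marks no difference). Medians for nonescalating against saline at 24 hours move from -1.31 and -1.54 to 0.13 and -0.14, while those for escalating against nonescalating stay at 1.14 and near 1.29.

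Abcb1a gave a log2 fold change of 1.59 (SE 0.54, p = 0.00626) and Pecam1 1.43 (SE 0.60, p = 0.0254), from the levels above. Pdgfrb gave 1.88 (SE 0.72, p = 0.0144) and Abcc9 1.29 (SE 0.54, p = 0.0251), all with an edgeR adjusted p of 0.9998. Of the 5 escalating libraries, 3, 4, 4 and 3 stood above the nonescalating mean, with 1589 the highest for Abcb1a, Pecam1 and Abcc9. Without 1589 the log2 fold change of Abcb1a was 0.75 and that of Pecam1 0.66.

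Astrocyte and oligodendrocyte markers did not go with the vessel genes in this comparison, at medians of -0.27 and -0.51, and D1 markers stood at -0.13. The 8 tested perivascular fibroblast genes were all higher, with a median of 2.24 and 2 at an unadjusted p below 0.05. Their summed level was 143 CPM in 1589 and 105 in 1588, against 51.7 in 1582, the highest nonescalating library, and their part in the result was not tested. Collagen Col1a1, a defining fibroblast gene, was at 0 in 21 of the 39 libraries.

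At 1 month most endothelial genes had fold changes above 0 in both cocaine groups against saline, with no gene past adjustment. For nonescalating against saline 23 of 24 endothelial genes (median 0.76) and 8 of 9 mural genes (median 0.47) were higher, with a median of 0.02 over all genes. One endothelial member, Cdh5, had an unadjusted p below 0.05, against 2.55% of all genes in that direction. Cdh5, the cadherin of endothelial junctions, measured 4.46, 4.49, 6.87, 15.2 and 19 CPM in saline and 6.69 to 53.8 with a median of 17.5 in nonescalating libraries. Its log2 fold change was 1.25 (SE 0.47, p = 0.0136, edgeR adjusted p = 0.986), with 9 of 10 nonescalating libraries above the saline mean and the groups overlapping.

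The transcription factor Erg went the other way at -1.21 (SE 0.60, edgeR adjusted p = 0.986), and the mural genes with the smallest p were Tagln at 1.42 (SE 1.16) and Vtn at 0.43 (SE 0.39). Erg stood at 21.1 ± 19.5 CPM in saline and 9.07 ± 6.47 in nonescalating libraries, and without the saline library 1590, where it was 53.1 CPM, its log2 fold change was -0.52. DESeq2 called 8 genes (0.0566%), none of them a member. Perivascular fibroblast markers had a median of 0.97 and oligodendrocyte markers 0.57, and their part in the result was not tested.

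For escalating against saline at 1 month, 23 of 24 endothelial genes and 7 of 9 mural genes were higher in escalating libraries, with medians of 0.76 and 0.69 (-0.01 over all genes). Escalating libraries held 5.75 to 6.96 M counts and saline libraries 10.5 to 33.9 M, so depth and group cannot be told apart here. Nonescalating libraries at 1 month held 10.5 to 15.2 M in 1596 to 1600 and 4.97 to 8.92 M in 1601 to 1605. The nonescalating-against-saline comparison at 1 month therefore mixes libraries of saline-like and of lower depth, and the part of depth in it was not tested. Cdh5 again had the smallest p, with 13.8, 16.4, 30.02 and 31.9 CPM in escalating libraries, a log2 fold change of 1.22 (SE 0.55, p = 0.0338, edgeR adjusted p = 0.9996) and 4 of 4 libraries above the saline mean. It was the 1 member past an unadjusted p of 0.05, against 1.76% of all genes higher and 2.6% lower. Sox18 stood at 1.63 (SE 0.94), Abcc9 at 0.78 (SE 0.58) and Vtn at 0.59 (SE 0.46). Without library 1609 the endothelial median was 0.03 and the mural median -0.57, while Cdh5 stood at 1.00.

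Escalating and nonescalating libraries at 1 month gave medians near that of all genes (-0.04), with 0.03 for endothelial genes (13 of 24 higher) and 0.13 for mural genes (5 of 9 higher). With 0 members past an unadjusted p of 0.05, against 1.04% of genes higher and 1.28% lower, the smallest p belonged to Rgs5 at -0.59 (SE 0.49), Anpep (aminopeptidase N) at 1.13 (SE 0.98), Tek at 0.53 (SE 0.62) and Tie1, the partner receptor of Tek, at 0.75 (SE 0.92), all with an edgeR adjusted p of 0.9989. Without 1609 the endothelial and mural medians were -0.61 and -0.69.

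Over time in saline, 1 month was compared with 24 hours. The median log2 fold change was -2.06 for endothelial genes (0 of 24 higher) and -1.85 for mural genes (0 of 9 higher), against -0.06 over all genes, and 19 endothelial and 4 mural members had an unadjusted p below 0.05 in the lower direction, where 9.49% of all genes did, and 0 in the higher direction (3.53%). Without 1573 and 1574 the medians were -0.74 and -0.61, 3 of 24 and 1 of 9 were higher, and 2 endothelial members and 0 mural members had an unadjusted p below 0.05 (3.35% of genes). Over all genes 550 higher and 1478 lower genes had an unadjusted p below 0.05, and with limma voom 1207 and 528, where 17 endothelial and 5 mural members passed in the lower direction.

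Cdh5 did not pass, at -2.72 (SE 0.72, p = 0.000466, edgeR adjusted p = 0.126), from 11.9 to 198 CPM with a median of 28.1 at 24 hours. Vtn gave -2.30 (SE 0.63, edgeR adjusted p = 0.126), Rgs5 -2.16 (SE 0.72, edgeR adjusted p = 0.183) and Abcb1a -2.03 (SE 0.65, edgeR adjusted p = 0.164). The 24-hour mean lay above all 5 libraries at 1 month for each. On the libraries other than 1573 and 1574 that held for 5 of 5 for Cdh5 and Vtn, 4 of 5 for Abcb1a and 2 of 5 for Rgs5. The 24-hour mean of Vtn was then 29.1 ± 28.9 CPM, raised by 1575 at 72.3 CPM, with the other saline libraries at 11.4, 15.1 and 17.4 CPM. Leaving out 1573 and 1574 the values were -1.09 for Cdh5, -0.93 for Vtn, -0.30 for Rgs5 and -0.72 for Abcb1a.

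This comparison was the one most changed by the choice of tool and library. DESeq2 called 575 genes (3.73%), among them 15 members with adjusted p from 0.00239 (Cdh5) to 0.0489 (Notch3), but 3 genes without 1573 and 1574, none of them a member. With edgeR, leaving out library 1570, 1571 or 1572 gave 31, 60 and 99 called genes. Cdh5 was called without 1572 and Vtn without 1571 or 1572, at adjusted p from 0.0487 to 0.0499. Astrocyte, oligodendrocyte, fibroblast and red blood cell markers were also lower at 1 month, by medians of -1.08, -1.97, -2.71 and -1.49, against 0.32 for D1 markers. In the fit lacking 1573 and 1574 these medians were 0.56, 0.17, -0.35, -0.62 and 0.07, and their part in the result was not tested.

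In nonescalating libraries vessel genes had medians near 0 between the times, at -0.10 for endothelial (11 of 24 higher) and 0.24 for mural genes (6 of 9 higher). Itm2a was the 1 member with an unadjusted p below 0.05, against 3.25% of genes in the lower direction, at -0.96 (SE 0.40, p = 0.0213, edgeR adjusted p = 0.914), with 10 of 10 libraries at 1 month below the 24-hour mean, and -0.42 without 1582. Acta2, at 0 in 6 of 9 libraries at 24 hours and 5 of 10 at 1 month, gets no fold change here. Sox18 gave 1.28 (SE 0.73) and Myh11 0.54 (SE 0.75).

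In escalating libraries 0 of 24 endothelial and 0 of 9 mural genes were higher at 1 month, with medians of -1.22 and -1.06. These libraries held 8.23 to 11.1 M counts at 24 hours and 5.75 to 6.96 M at 1 month, so depth and time cannot be told apart. An unadjusted p below 0.05 was reached by Slc2a1 at -1.59 (SE 0.66, p = 0.0206) and Abcg2 at -2.04 (SE 0.92, p = 0.0309), both with an edgeR adjusted p of 1, against 1.27% of genes lower and 0.449% higher. Slc2a1 averaged 211 ± 146 CPM at 24 hours and 70.0 ± 28.2 at 1 month, and Abcg2 32 ± 28.7 and 7.77 ± 8.16 CPM. Rgs5 gave -1.39 (SE 0.78) and Vtn -1.13 (SE 0.67). Without 1589 the endothelial median was -0.61 and the mural median -0.59. Fibroblast markers had a median of -1.34, red blood cell markers -1.09 and astrocyte markers 0.35, and their part in the result was not tested.

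The difference of these differences was tested as an interaction, and 0 genes passed with edgeR. The nonescalating-against-saline difference was higher at 1 month than at 24 hours for 23 of 24 endothelial and 9 of 9 mural genes, by medians of 2.05 and 1.97, and 11 endothelial and 3 mural members had an unadjusted p below 0.05, against 6.74% of genes higher and 3.06% lower. Sox18 changed by 4.46 (SE 1.27, edgeR adjusted p = 0.214) and Vtn by 2.47 (SE 0.77, edgeR adjusted p = 0.247). Without 1573 and 1574 the medians were 0.62 and 0.95 and 2 endothelial members had an unadjusted p below 0.05 (2.94% of genes). DESeq2 called 109 genes, with Cdh5, Egfl7 and Sox18 among them (adjusted p 0.0178 to 0.0454, 0.708% of genes), and 6 genes without 1573 and 1574.

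The escalating-against-saline difference changed by medians of 0.81 and 0.77 (20 of 24 and 9 of 9 higher), with 1 member past an unadjusted p of 0.05, Sox18 at 2.92 (SE 1.42, p = 0.0460), against 3.15% of genes higher and 1.8% lower. Without 1573 and 1574 the medians were -0.44 and -0.22. The escalating-against-nonescalating difference was lower at 1 month for 23 of 24 endothelial and 9 of 9 mural genes, by medians of -1.19 and -1.05, with 0 members past an unadjusted p of 0.05 (0.931% of genes higher, 1.37% lower). Abcb1a changed by -1.56 (SE 0.83) and Vtn by -1.30 (SE 0.81). Without 1589 the medians were -0.48 and -0.59.

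Further endothelial, mural and ligand genes were counted in the same way. Some stood far above the members in saline at 24 hours without 1573 and 1574 (n = 4). On the endothelial list Spock2 averaged 1741, Tjp1 307 and Bsg 211 CPM, and on the mural list Tpm1 averaged 655 CPM. The member Ptprb averaged 146 CPM there. Which cells these genes came from was not tested, so the lists cannot be read as vessel genes alone. For nonescalating against saline at 24 hours 2 of 36 tested endothelial genes were higher (median -1.33, 15 lower at an unadjusted p below 0.05), and 3 of 18 mural genes (median -0.91, 2 lower and 1 higher). Over all genes 7.72% were lower and 2.25% higher at that p. For escalating against nonescalating at 24 hours 34 of 36 endothelial genes (median 1.04, 10 past an unadjusted p of 0.05) and 17 of 18 mural genes (median 1.03, 1 past it) were higher. The share of all genes higher at that p was 2.36%. In saline over time 0 of 36 endothelial genes were higher (median -1.88, 21 lower at an unadjusted p below 0.05), and 4 of 20 mural genes (median -1.03, 6 lower). Here 9.49% of all genes were lower at that p. Of the 11 ligand genes tested, 2 were higher for nonescalating against saline at 24 hours (median -1.14), 9 for escalating against saline (median 0.56) and 0 in saline over time (median -1.53). Leaving out 1573 and 1574, the medians of the further endothelial, mural and ligand genes were 0.04, -0.09 and 0.06 for nonescalating against saline at 24 hours. In saline over time they were -0.58, -0.68 and -0.64, with 4, 2 and 2 genes lower at an unadjusted p below 0.05, against 3.35% of all genes. For ligands in escalating against saline the median was 0.37.

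Named by smallest p, Adgrf5, an adhesion receptor of endothelium, stood at 316 ± 234 CPM in saline and 107 ± 55.9 in nonescalating libraries at 24 hours, a log2 fold change of -1.59 (SE 0.47, edgeR adjusted p = 0.224), or -0.72 against 175 ± 102 CPM without 1573 and 1574. Lmod1 (leiomodin of smooth muscle) averaged 9.59 ± 18 CPM in saline (1.92 ± 2.34 without 1573 and 1574) and 0.126 ± 0.255 in nonescalating libraries, and Gja4 (connexin of arteries) 0.0734 ± 0.103 CPM in saline and 6.09 ± 6.49 in escalating libraries. The median of Lmod1 was 0 in nonescalating libraries and Gja4 stood at no more than 0.264 CPM in saline, so no fold change is given. Mylk, the myosin kinase, averaged 62.2 ± 61.4 CPM in escalating and 11 ± 6.96 in nonescalating libraries at 24 hours, at 2.49 (SE 0.77, edgeR adjusted p = 0.9998), and Ly6a, a surface protein of endothelium, gave 2.98 (SE 1.00, edgeR adjusted p = 0.9998).

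The proteoglycan Cspg4 (NG2), made by pericytes and by oligodendrocyte precursors, had the smallest p of the list. In saline it averaged 49.6 ± 44.0 CPM at 24 hours and 3.89 ± 2.17 CPM at 1 month, at -3.68 (SE 0.80, p = 3.74e-05, edgeR adjusted p = 0.120), or 29.1 ± 27.2 CPM at 24 hours and -2.91 (edgeR adjusted p = 0.780) without 1573 and 1574. It stood at 12.5 ± 10.1 and 13.8 ± 7.13 CPM in nonescalating and escalating libraries at 1 month, 1.70 (SE 0.55) and 1.85 (SE 0.63) above saline. Heyl, a target of Notch3, stood at 21.7 ± 13.2, 7.46 ± 6.00 and 4.96 ± 1.96 CPM in saline, nonescalating and escalating libraries at 1 month, at -1.53 (SE 0.54) and -2.11 (SE 0.74), with edgeR adjusted p of 0.986 and 0.9996.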

How the data were processed

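Each library has 1 deposited file of raw counts by gene symbol. STAR 2.0.0e (alignment, mm10) and HTSeq (counting) are named in the submitters' processing notes; which annotation and strand mode they used is not given in the sources used here. Counts of near-identical or overlapping genes are therefore uncertain, and the summary lines of each file, which name no gene, stayed out of totals and tests.

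Levels are CPM on library totals scaled by TMM over 39 libraries; log2 CPM used a prior count of 2. Exon lengths came from GENCODE vM21. Comparisons at 1 time were fitted to the 3 groups of that time, and those over time to all 6 groups, with edgeR 4.0.16 in R 4.3.3 (filterByExpr with a minimum count of 10, TMM, quasi-likelihood test, two-sided, adjusted p threshold 0.05). Alternatives were DESeq2 1.42.0, limma 3.58.1 (voom), other scalings, no filter, a replicate block, 1 fit of 39 libraries, and fits without single libraries, without 1573 and 1574, or with 1595. Figures were drawn with matplotlib 3.10.9.

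The code was checked on simulated counts. Of 122 pairs of libraries within groups, none agreed within sampling noise (chi-square per gene 12.1 to 291). Numbers of libraries repeat between groups and within the nonescalating groups. Deviations of same-numbered libraries of different groups had a median r of -0.009 over 22 pairs at 24 hours and 0.022 over 20 pairs at 1 month. Of these, 5 and 3 pairs exceeded an r of 0.1, against 17 of 107 and 12 of 90 pairs of unlike number. The main fits used no pairing, and this check cannot exclude a shared cohort or batch.

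The members and lists were chosen with earlier results of these data known. Named members are the 2 endothelial and 2 mural ones with the smallest p in each comparison (1 and 1 for changes over time). Also named are 12 members with levels by library, and the 2 genes of the further lists with the smallest p. Genes shown as examples beyond these were chosen after their values were seen. Floors cover counting error only.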

Additional observations from a re-analysis of the deposited data

Results flagged for a closer look

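Of 84 groups of 4 to 10 libraries examined for 14 measures (12 members and the mean log2 CPM of each list), 9 held a library far from the others of its group. Chance alone gives about 1 such group in 20.

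Library 1609 stood high among the 4 escalating 1-month libraries, with a mean log2 CPM of 5.43 over endothelial genes (the nearest library had 3.55) and a log2 CPM of 8.46 for Flt1 (nearest 6.85). Library 1573 stood high among the 6 saline 24-hour libraries, at 6.00 for the mean of mural genes (nearest 3.81), 7.72 for Pdgfrb (nearest 4.61) and 6.43 for Itm2a (nearest 4.46). Its share of reads outside genes was 70.3% and its summed D1 markers 322 CPM, and the part of these in its mural level was not tested.

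Low libraries were 1606 among escalating 1-month libraries, at 3.27 for Itm2a (nearest 4.17) and -2.39 for Acta2 (nearest 2.29), the nonescalating 24-hour library 1577 at -2.39 for Cldn5 (nearest 0.88), and the escalating 24-hour library 1588 at -2.39 for Tagln (nearest 1.35). The value of -2.39 is that of a count of 0 with the prior count used.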

How the results depend on the processing

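The main fits called 0 genes in each comparison. Recomputed counts of called genes were above 0 in 23 cases and stayed at 0 in 442. List medians moved by more than the SD between libraries in 17 cases and not in 913. That limit is wide, so the 913 are no measure of steadiness. It was 1.23 for the endothelial median of nonescalating against saline at 24 hours, which went from -1.31 to -0.75 without 1574 and counted as unmoved. Medians near 0 could also change sign within it, as those of escalating against saline at 24 hours did with other scalings and tools. Of the values of named genes 14 reversed, 12 became calls with DESeq2, with 1 fit of 39 libraries or without 1 library, and 1540 kept direction and side of the threshold. The cause was not tested. Against 0 genes with edgeR, DESeq2 called 159, 8 and 3 genes for nonescalating against saline, escalating against saline and escalating against nonescalating at 24 hours, 8 for nonescalating against saline at 1 month, 575, 3 and 6 over time in saline, nonescalating and escalating libraries, and 109, 10 and 6 for the changes. In the same order, DESeq2 without 1573 and 1574, an alternative added after the data were seen, called 4, 11 and 3 at 24 hours, 3, 6 and 3 over time, and 6, 4 and 3. One edgeR fit of 39 libraries called 129 for nonescalating against saline at 24 hours, Vtn among them. Leaving out single libraries gave 0 to 99 genes for saline over time.

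Without 1573 and 1574, without these and 1582, and by DESeq2 without 1573 and 1574, the endothelial median was 1.32, 1.36 and 1.4 for escalating against saline at 24 hours, -0.74, -0.74 and -0.73 for saline over time, and -0.44, -0.44 and -0.47 for the change of escalating against saline. The mural median for nonescalating against saline at 24 hours was -0.14, -0.082 and -0.14, and, by the first and last settings, the endothelial median was 0.13 and 0.15, and 0.62 and 0.62 for its change. Under the 3 settings Sox18 (0.087, 0.14 and 0.17) and Rgs5 (0.91, 0.94 and 0.98) for escalating against saline at 24 hours, and Vtn (-0.22, -0.22 and -0.24) for the change, reversed.

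Tie1 for escalating against nonescalating at 1 month reversed with limma voom (-0.088). Leaving out single libraries gave -1.85 to 1.14 for Tie1, -0.35 to 0.99 for Tek and -0.24 to 1.60 for Anpep there, and -0.57 to 0.99 for the mural median of escalating against saline at 1 month, each lowest without 1609. With the replicate block 0 genes were called in each comparison, Myh11 over time in nonescalating libraries reversed to -0.14, and the endothelial median for nonescalating against saline at 24 hours was -0.48. That block joins libraries by number only, including nonescalating libraries of one group that share a number. Library totals in place of TMM moved the median of all genes by at most 0.16, and limma voom, another tool, by at most 0.25, both for escalating against saline at 24 hours. With library totals, higher and lower genes at an unadjusted p below 0.05 numbered 387 and 62 for escalating against nonescalating at 24 hours (334 and 112 with TMM), 283 and 271 for escalating against saline (250 and 368) and 177 and 114 for escalating against nonescalating at 1 month (147 and 181), and 338 and 330 for the change of escalating against saline (490 and 280). Depth limits the smooth muscle genes most, with a median count of 7.0 for Acta2.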
